A study of Equus caballus with 4 samples.

Results

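The cytosolic ribosomal protein genes were taken from a comparison of gene expression in equine satellite cells exposed to gamma-oryzanol (GO) with that in control cells. Members were the probes, other than control probes, whose gene symbol is that of a protein of the large subunit (RPL or RPLP followed by a number) or of the small subunit (RPS followed by a number). By this rule 231 of 43603 probes belonged to 64 of 24998 gene names, 39 of them of the large and 25 of the small subunit. Each gene was represented by the probe with the highest mean log2 processed signal, and the symbols of 62 of the 64 genes were also found in the RefSeq gene table. All 231 probes passed the filter on dim probes, which asked for a signal well above background in the same channel on all 4 arrays.

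Satellite cells of the semitendinosus muscle of young colts were grown, passed through a pre-plating step against fibroblasts and switched to differentiation medium. GO, a mixture of ferulic acid esters from rice bran, was present at 125 nM for 24 h after the second day of differentiation, and RNA, kept for the arrays at a RIN of at least 9.2, was taken on day 3. Control cells received the same dose of the vehicle DMSO, 0.04 μl/ml. The labels call the 4 arrays biological replicates, whereas the methods speak both of equal cell numbers from each isolation and of choosing the best cell line, so *p* values measure the spread between these 4 pairs of RNA samples, which may be technical in part. RNA of GO-treated cells was labeled with Cy5 and RNA of control cells with Cy3 on every array, so an effect of the dye and an effect of GO cannot be told apart by the design. The ratios below are log2 of GO over control, and a gene was counted as changed at a Benjamini-Hochberg adjusted *p* value of at most 0.05 in limma's moderated test over all probes tested and a fold change (FC) no smaller than 1.3 in either direction, which is 0.38 on the log2 scale.

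A ribosome joins a small subunit, which reads the mRNA, to a large subunit, which forms the peptide bond, and each subunit is ribosomal RNA held by a shell of small, mostly basic proteins. The mRNAs of these proteins are among the most abundant of a growing cell, begin with a run of pyrimidines and are translated under the control of mTOR. Muscle differs from most tissues in making *rpl3l*, a paralog of *rpl3* found mainly in skeletal muscle and heart, and testis in making *rpl10l*, a paralog of the X-linked *rpl10*.

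The probes of these paralog pairs are shown since the paralogs gave the lowest and the highest ratio among the used probes of the family. A probe of a paralog can also bind the mRNA of its parent. The 60-base probes of *rpl3* and *rpl3l* each hold a reading frame that ends with the last codon of the probe, the stop codon, given in capitals:

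RPL3: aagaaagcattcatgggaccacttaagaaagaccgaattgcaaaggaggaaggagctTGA
RPL3L: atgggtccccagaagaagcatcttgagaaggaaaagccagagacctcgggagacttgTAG

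Set end to end with no shift, 22 of the 60 bases of these probes were identical (36.7%). The *rpl10* pair below was set over its common stretch instead, so these shares are not comparable. The share does not measure the likeness of the *rpl3l* probe to *rpl3* mRNA. The files place the *rpl3l* probe on the minus strand at chrUn:73754409-73754764 and the *rpl3* probe on the minus strand at chr28:36024040-36024359 of EquCab1, both over a span wider than the probe. A probe of *rpl10* that overlaps the used probe of *rpl10l* is given beside it, with the bases that differ in their common stretch in capitals:

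RPL10: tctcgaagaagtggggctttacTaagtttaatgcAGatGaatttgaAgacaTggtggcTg
RPL10L: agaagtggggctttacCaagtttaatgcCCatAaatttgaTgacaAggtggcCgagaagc

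Of the 54 bases in common, 47 were identical (87%). The *rpl10l* probe lies on the minus strand at chr1:175001293-175001352 and the *rpl10* probe on the plus strand at chrUn:276241153-276241212 of EquCab1. Binding of *rpl10* RNA to the *rpl10l* probe was not tested.

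In the deposited ratios 4 of the 64 ribosomal protein genes were changed: *rpl10l*, *rpl37a* and *rps18* were higher in GO-treated cells and *rpl3l* was lower. These 4 genes are 6.25% of the members, and the same thresholds were passed by 8.8% of the 15302 gene names tested, 3.45% higher and 5.35% lower. On the adjusted *p* value alone 13 members passed (12 higher), against 17.1% of all gene names, and the 9 that missed only the fold change were *rpl9*, *rpl10*, *rpl7a*, *rpl34*, *rps28*, *rps29*, *rps27a*, *rps14* and *rps19*, all higher. Small positive ratios were the common pattern, with 50 of 64 means above 0, against 51.3% of all gene names, and a median over the members of 0.14, beside 0.00 over all tested probes. A ratio here is that of a whole culture, in which fewer cells of a type and less RNA per cell cannot be told apart.

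**Figure D1:**
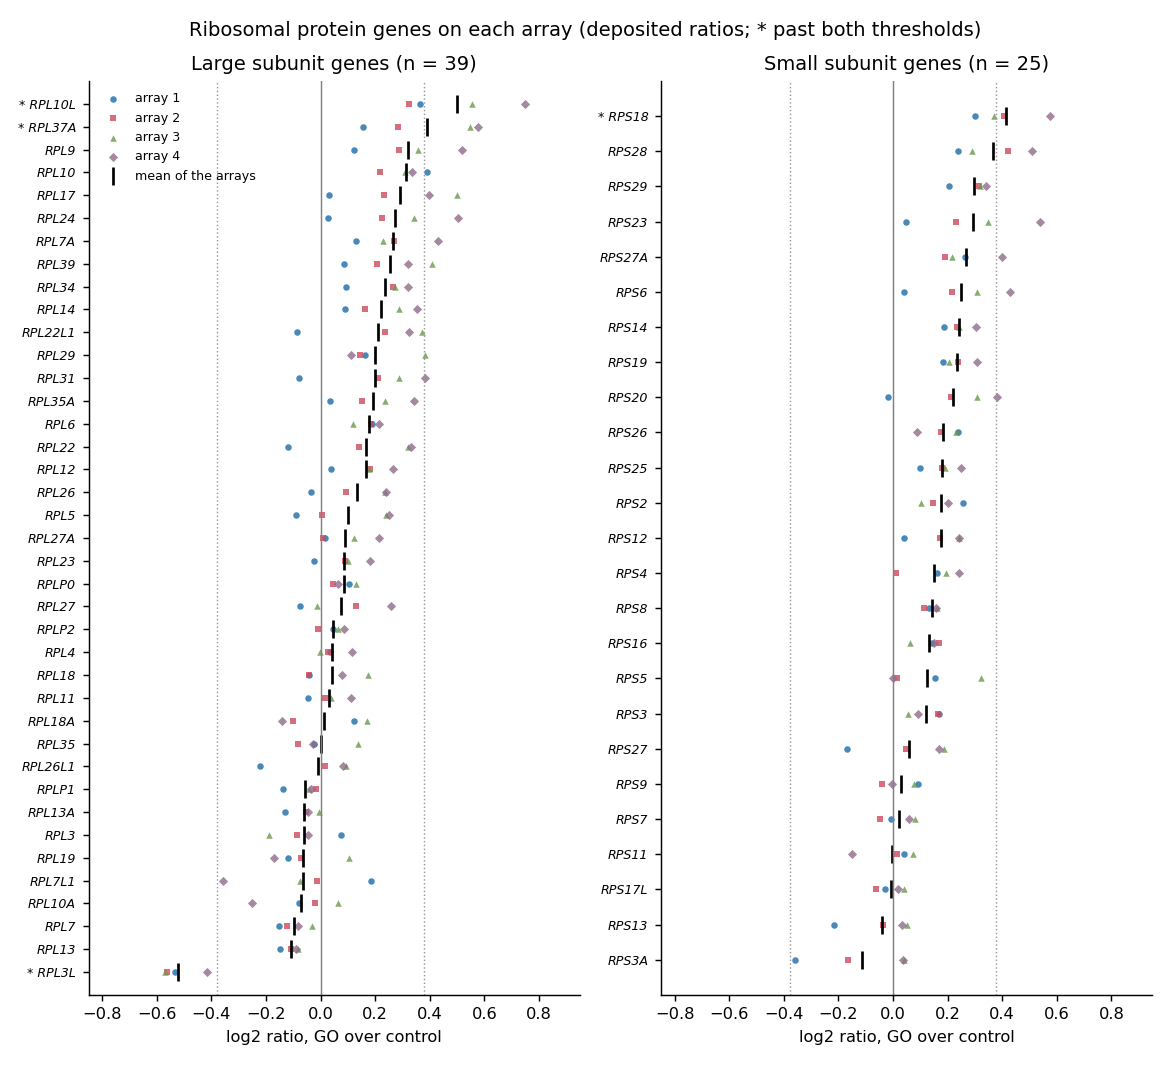
Log2 ratio (GO over control) of each ribosomal protein gene on each of the 4 arrays, from the deposited ratios, with the mean as a vertical bar; large subunit genes on the left, small subunit genes on the right, dotted lines at a fold change of 1.3, and an asterisk at genes past both thresholds. Most small subunit genes lie to the right of 0 on all 4 arrays, while *rpl3l* stands alone at the lower end.

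Among the 39 large subunit genes 29 had a mean ratio above 0, 16 were higher on all 4 arrays and 5 were lower on all 4, where 20.6% and 20.3% of all gene names tested kept 1 sign in this way. Their median ratio was 0.03 on array 1, 0.09 on array 2, 0.17 on array 3 and 0.21 on array 4. Among the 25 small subunit genes 21 had a mean above 0, 17 were higher on all 4 arrays and none was lower on all 4, with median ratios of 0.13, 0.17, 0.19 and 0.20. The large subunit median was below the small subunit median on arrays 1, 2 and 3 and just above it on array 4, with differences of −0.11, −0.08, −0.02 and 0.01 (mean −0.05 ± 0.05 SD, n = 4). Over the gene means the medians were 0.09 and 0.17, a difference of −0.08 which fell in size to −0.02 without array 1. The arrays differed in the same way over most members, since array 1 gave the lowest ratio of 36 of the 64 genes and array 4 the highest ratio of 33.

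The decrease of *rpl3l* was the largest fall of the family. Its log2 processed signals in control cells were 7.57, 7.35, 7.31 and 7.04 on arrays 1 to 4, and those in GO-treated cells were 7.03, 6.79, 6.73 and 6.62, so the lowest control signal was just above the highest GO signal. The ratios were −0.53, −0.56, −0.57 and −0.42 (mean −0.52 ± 0.07 SD, n = 4; FC 1.43; adjusted *p* = 0.00473, limma). The gene had 1 probe, near the dim end of the tested range. Its ratio lay between −0.50 and −0.56 with any 1 array left out, with an adjusted *p* value of at most 0.0316, and at −0.35 (adjusted *p* = 0.0169), short of the fold change, after normexp background correction and loess. The parent gene *rpl3*, which encodes a large subunit protein beside the peptidyl transferase center, had ratios of 0.08, −0.09, −0.19 and −0.05 (mean −0.06 ± 0.11 SD, n = 4; adjusted *p* = 0.539). The paralog was below its parent on all 4 arrays, by a mean of −0.46 ± 0.11 (SD, n = 4), and the two-sided exact sign-flip permutation test gave *p* = 0.13, the smallest that 4 arrays allow (0.312 adjusted over the 5 paralog pairs compared).

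Most myogenic markers tested were lower in GO-treated cells, as was *rpl3l*. Of the 12 myogenic markers listed 7 had a named probe, all well above background, and 5 were lower in GO-treated cells: *myf5* (−0.93), an early myogenic factor, *myh3* (−0.83), the embryonic myosin heavy chain, *acta1* (−0.64), the skeletal actin, *des* (−0.61), the muscle intermediate filament, and *myog* (−0.40), the factor that drives terminal differentiation. None was higher, and 4 of the 7 were lower after normexp and loess and 2 after median centring. Of all gene names 5.35% were lower and 3.45% higher in the deposited ratios. In either direction 4.35% were changed after normexp and 11.3% after median centring. In the paper's account *myf5* falls and *myog* rises as cells differentiate, so their falls do not point the same way. The log2 of the summed signal of the 7 markers ranged from 17.16 to 17.61 in control and from 16.37 to 16.87 in GO-treated cells. Of 6 fibroblast markers 1 was higher, the dim *pdgfra* (0.87). The log2 of the summed signal of the 6 overlapped between control (17.27 to 17.77) and GO (17.32 to 17.68). None of the 6 was changed after normexp and loess and 3 were after median centring. Of 2 leukocyte markers tested none was changed (1 at an unadjusted *p* value under 0.05 in limma), and no adipocyte or endothelial marker was well above background. The part of these markers in the ratio of *rpl3l* was not tested.

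The increase of *rpl10l* was the largest rise among the used probes. Control signals were 6.98, 6.71, 6.47 and 6.20 and GO signals 7.34, 7.03, 7.02 and 6.95 (log2), so the groups overlapped by 1 control sample while the GO signal was the higher on each array. The ratios were 0.36, 0.32, 0.56 and 0.75 (mean 0.50 ± 0.20 SD, n = 4; FC 1.41; adjusted *p* = 0.0137, limma). All 5 probes of the gene were dim, between 6.36 and 6.84, with mean ratios of 0.41 to 0.53, and 4 of them were changed. Without array 3 the adjusted *p* value rose to 0.0552, and after normexp and loess the ratio was 0.30. The parent gene *rpl10*, whose protein joins the large subunit late, in the cytoplasm, had ratios of 0.39, 0.22, 0.31 and 0.33 (mean 0.31 ± 0.07 SD, n = 4; adjusted *p* = 0.0175) at its used probe, below the fold change, and means of 0.15 and 0.09 at its 2 other probes, neither of which passed the test (adjusted *p* = 0.146 and 0.271, limma). The paralog lay 0.18 ± 0.19 (SD, n = 4) above the used probe of the parent, lower than it on 1 array of 4 (exact sign-flip permutation *p* = 0.250). Against the *rpl10* probe printed above it lay 0.35 ± 0.19 (SD, n = 4) higher, and higher on all 4 arrays (exact sign-flip permutation *p* = 0.13, the smallest that 4 arrays allow), so this gap rests on the probe that stands for the parent.

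**Figure D2:**
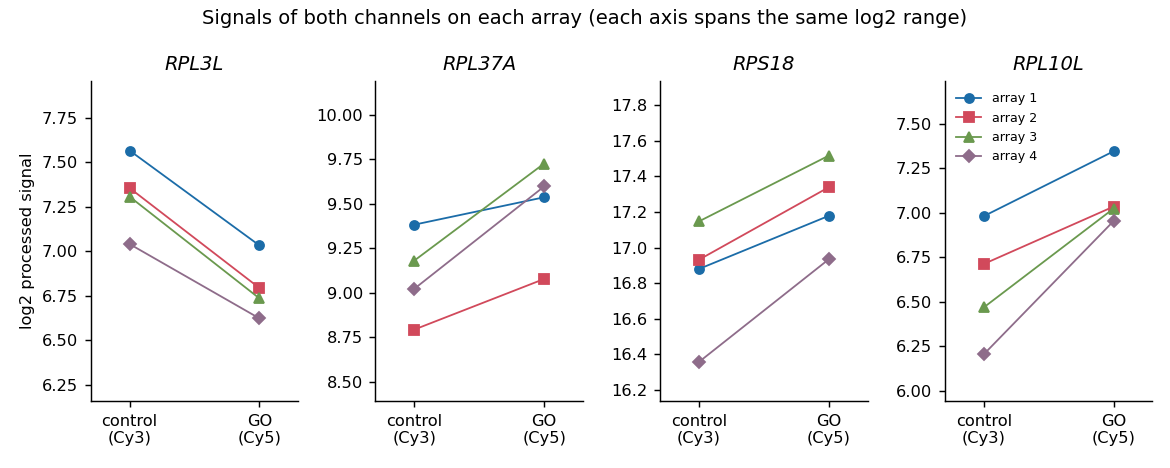
Log2 processed signal of control (Cy3) and GO-treated (Cy5) RNA on each of the 4 arrays for the ribosomal protein genes past both thresholds, 1 line per array; each axis spans the same log2 range. All 4 lines fall for *rpl3l* and all 4 rise for the other 3 genes, with *rpl37a* rising least on array 1 (0.15).

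*rpl37a*, which encodes a zinc-binding protein of the large subunit, had ratios of 0.15, 0.28, 0.55 and 0.57 (mean 0.39 ± 0.20 SD, n = 4; FC 1.31; adjusted *p* = 0.0292, limma). Arrays 3 and 4 lay above arrays 1 and 2, and GO signals (9.08 to 9.73) overlapped with control signals (8.79 to 9.38). Its other probe, dimmer still, had a ratio of 0.19 and was not changed. This call was the least stable of the 4, with adjusted *p* values of 0.0803, 0.106 and 0.0788 without array 2, 3 or 4 and a ratio just under the threshold (0.37 or 0.38) in 3 of the 4 alternative dye normalizations and 0.34 in the other.

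The remaining large subunit genes did not pass both thresholds. *rpl9* had ratios of 0.12, 0.29, 0.36 and 0.52 (mean 0.32; adjusted *p* = 0.0348), lowest on array 1, and passed both thresholds without that array (0.39, adjusted *p* = 0.0312). Without array 2, 3 or 4 its adjusted *p* values in limma were 0.109, 0.116 and 0.0967. The stalk proteins, which recruit the elongation factors, were near 0, with means of 0.09 for *rplp0*, −0.06 for *rplp1* and 0.05 for *rplp2*, with SDs of 0.04 to 0.05 over the 4 arrays. *rpl5* (0.10) and *rpl11* (0.03), which travel with the smallest ribosomal RNA and can bind MDM2, and *rpl13a* (−0.06), often a reference gene in qPCR, did not pass the test (adjusted *p* between 0.401 and 0.751, limma). Of 7 proteins around the exit tunnel for the nascent peptide none was changed (2 at an unadjusted *p* value under 0.05 in limma) and 6 were positive, with a median of 0.17. Of the 7, 3 were changed after normexp and loess (median 0.33) and 7 after median centring (0.64). Among all large subunit genes 43.6% and 89.7% were changed in these settings. The other paralogs gave means of 0.21 for *rpl22l1*, −0.01 for *rpl26l1* and −0.07 for *rpl7l1*, with array SDs of 0.15 to 0.22.

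In the small subunit *rps18*, whose protein sits in the head of the subunit, had control signals of 16.88, 16.93, 17.15 and 16.36 and GO signals of 17.18, 17.34, 17.52 and 16.93. The signals overlapped between groups, but the GO signal was the higher on each array, with ratios of 0.30, 0.41, 0.37 and 0.58 (mean 0.41 ± 0.12 SD, n = 4; FC 1.33; adjusted *p* = 0.0116, limma). All 5 probes of *rps18* were changed, with mean ratios from 0.41 to 0.60, and the used probe, at chr20:27139154-27139213 of EquCab1, gave the lowest of them. For this probe the call was lost without array 2 (adjusted *p* = 0.0575), without array 4 (ratio 0.36) and when no filter on dim probes was set (adjusted *p* = 0.0542). *rps18* was the only one of the 64 genes counted as changed in the deposited ratios and in all 4 alternative dye normalizations described below.

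Other genes of the head of the small subunit had ratios near the threshold, as did genes outside it such as *rpl9* (0.32) and *rpl10* (0.31). *rps28* had ratios of 0.24, 0.42, 0.29 and 0.51 (mean 0.37 ± 0.12 SD, n = 4; adjusted *p* = 0.0173), and *rps29*, which encodes another protein of the head and binds zinc, had ratios of 0.21, 0.32, 0.32 and 0.34 (mean 0.30 ± 0.06 SD, n = 4; adjusted *p* = 0.0193). Without array 1 *rps28* passed both thresholds (0.41, adjusted *p* = 0.0272), but without array 2, 3 or 4 its adjusted *p* values in limma were 0.0812, 0.0540 and 0.0527. The 10 head and beak genes measured were all positive, between 0.12 and 0.41, with a median of 0.20 and 1 call (10%). Of these 10, 9 were changed after normexp and loess (median 0.62) and 10 after median centring (1.12). Among all small subunit genes 72% and 96% were changed in these settings. *rps19*, the gene most often mutated in Diamond-Blackfan anaemia, had ratios of 0.18, 0.24, 0.21 and 0.31 (mean 0.23; adjusted *p* = 0.0354). The 14 genes of that anaemia that were measured were all positive, with a median of 0.12, and none was changed (5 at an unadjusted *p* value under 0.05 in limma). After normexp and loess 11 of the 14 were changed (median 0.49), and after median centring all 14 were (0.95). Over all members the shares in these settings were 54.7% and 92.2%.

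*rps27a*, made as a fusion with ubiquitin, had a mean ratio of 0.27 ± 0.09 (SD, n = 4; adjusted *p* = 0.0321) and was higher on all 4 arrays. *rps23*, at the decoding center, ranged from 0.05 to 0.54 between arrays (mean 0.29; adjusted *p* = 0.0635), and *rps6*, the substrate of S6 kinase, from 0.04 to 0.43 (mean 0.25; adjusted *p* = 0.0691). *rps3*, at the mRNA entry, was steadier and smaller (0.12 ± 0.06 SD, n = 4; adjusted *p* = 0.179). At the lower end *rps17l* was at −0.01 ± 0.05 (SD, n = 4), and *rps3a* was at −0.11 ± 0.19, negative on arrays 1 and 2 alone.

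Probes of 1 gene mostly gave like ratios, since they read the same RNA and are no replicates. Of the 64 genes 43 had several probes. The 19 probes of *rps20*, the most of any member, gave mean ratios between 0.15 and 0.22, the 5 of *rpl13a* between −0.06 and 0.00, and the 6 of *rplp2* between −0.01 and 0.05. Wider spans were seen for *rps12* (−0.12 to 0.34 over 9 probes, with signals from 4.49 to 17.02) and *rpl35a* (0.18 to 0.44 over 7 probes), for which 3 of 7 probes were changed but not the brightest. In all, 14 of the 231 probes, in 5 genes, were changed (background 8.94% of probes). Of these 14, 6 were among the 11 member probes with a log2 signal below 10, all of *rpl3l*, *rpl10l*, *rpl37a* or *rps12*. With the mean of all probes of a gene in place of the brightest, 3 genes were changed, *rpl10l*, *rpl3l* and *rps18*.

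The size of the ratios rested on the dye normalization. Ribosomal protein probes crowded at the top of the signal range, with 177 of the 450 tested probes at a mean log2 signal of at least 16 (39.3%) and a median of 16.5 over the 64 used probes; the signal also depends on the probe, so it does not rank the mRNAs. Without the lowess step, the median ratio of the probes of other genes went from −0.16 below a log2 signal of 6 to 0.89 at 17 and over. The linear and lowess steps of the deposited ratios lowered the member ratios by a median of 0.90, 0.68, 0.46 and 1.25 on arrays 1 to 4. Over all tested probes this median shift was 0.16, −0.03, −0.51 and 0.31. The members also took part in setting that curve, as 181 to 212 of their 235 spots were among the 8008 to 8027 spots of an array that the software had picked for normalization.

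**Figure D3:**
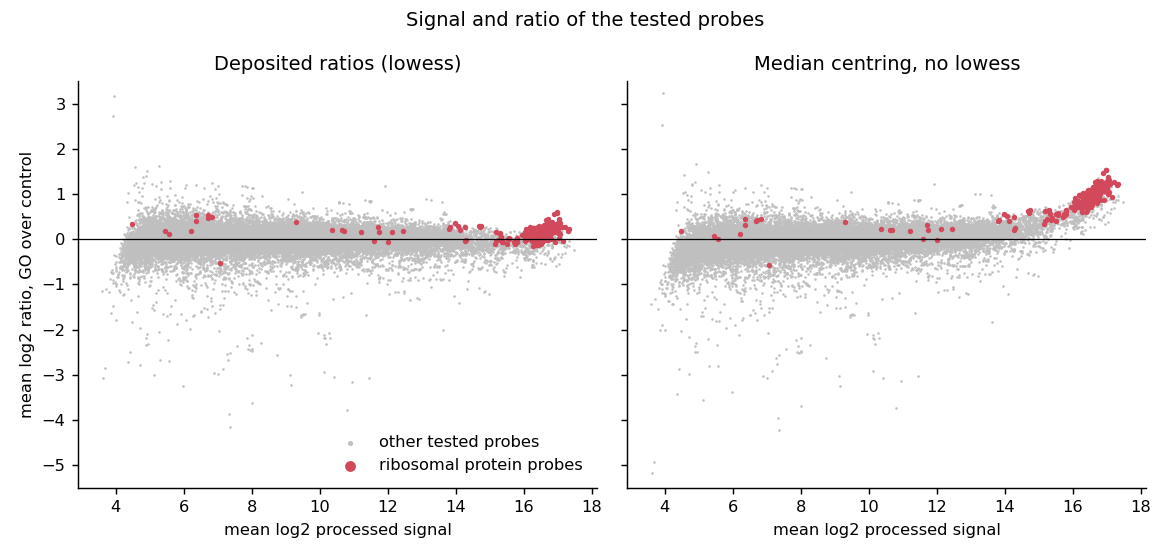
Mean log2 ratio (GO over control, 4 arrays) against mean log2 processed signal of the tested probes, with ribosomal protein probes in red and other probes in grey; left, the deposited ratios after lowess, right, background-subtracted signals centred on the median of each array with no lowess. The red cloud at a signal of 16 and above lies at a median of 0.17 on the left and 0.99 on the right, with the grey probes at −0.05 and 0.75.

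With other normalizations the member medians were again above 0, and larger. Loess fitted in limma to the background-subtracted signals gave a median of 0.26 for the large and 0.40 for the small subunit, with 29 of 64 genes changed, 28 of them higher (background 8.89% of gene names). The same loess with the member probes given no weight, an alternative chosen after seeing the data, gave medians of 0.35 and 0.52 with 35 genes changed (background 8.98%). Normexp background correction with loess gave 0.35 and 0.54 with 35 genes changed, all higher (background 4.35%). Median centring without any curve gave 0.80 and 1.05 with 59 genes changed, 58 of them higher (background 11.3%). These backgrounds are not those of equally bright genes. Of the 64 members 46 had a log2 signal of at least 16. Among the other probes that bright, 17.9%, 28.9%, 33.7% and 89% were changed in these 4 settings, in the order given. In the first of these settings and the 2 last, 27 genes (42.2%) were called higher each time, 12 of the large and 15 of the small subunit, against 1.2% of all gene names. The share among equally bright genes was not computed. These settings start from the same 4 arrays and the same dye orientation, and share them with the deposited ratios.

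Over the medians of gene means the order of the subunits did not turn. The large subunit median was below the small subunit median on each of the 4 arrays in all 4 of these alternatives, by −0.07 to −0.16 in background-subtracted loess, −0.11 to −0.19 with member probes left out, −0.13 to −0.23 after normexp and −0.19 to −0.28 after median centring. In the deposited ratios it was below on 3 arrays of 4. The small subunit genes were also the brighter set, with a median log2 signal of 16.8 and none below 15.1. The large subunit genes had a median of 16.4 and reached down to 6.8. Without lowess the ratio rose with signal over other probes too, and the part of brightness in the subunit order was not tested. Single genes with ratios near 0 did change sign, among them *rplp1* (−0.06 to 0.36 after normexp) and *rpl13a* (−0.06 to 0.28 after normexp).

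**Figure D4:**
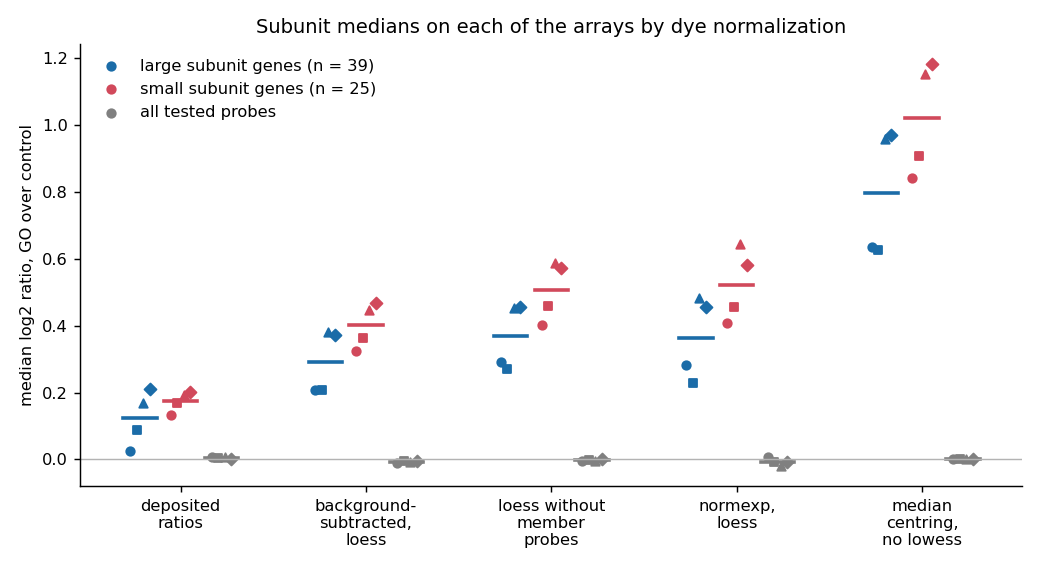
Median log2 ratio (GO over control) of the large subunit genes, the small subunit genes and all tested probes on each of the 4 arrays (circle, square, triangle and diamond for arrays 1 to 4; line, mean of the arrays) under the deposited ratios and 4 other dye normalizations. The members rise from 0.12 and 0.17 (means of the large and small subunit medians) on the left to 0.80 and 1.02 on the right, while all tested probes stay within 0.02 of 0.

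The gap to other bright probes moved less with the normalization. Each setting shifts probes of like signal by a like amount, so this steadiness is no test of the gap. At a log2 signal of at least 16, the 177 member probes of 46 genes had a median ratio above that of the 273 other probes on every array, by 0.08, 0.15, 0.34 and 0.31 in the deposited ratios (mean 0.22 ± 0.13 SD, n = 4). After normexp the differences were 0.07, 0.15, 0.34 and 0.33, and after median centring 0.09, 0.14, 0.34 and 0.37. The gap was wider on arrays 3 and 4 than on arrays 1 and 2 under each setting. The share of probes changed did not keep an order, since in the deposited ratios 4.52% of the bright member probes and 13.6% of the other bright probes were changed, against 71.8% and 33.7% after normexp. Of the 273 other probes 19 are themselves described in the files as ribosomal proteins, and the bright range was chosen after the ratios were known, so the gap is a description with no test.

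**Figure D5:**
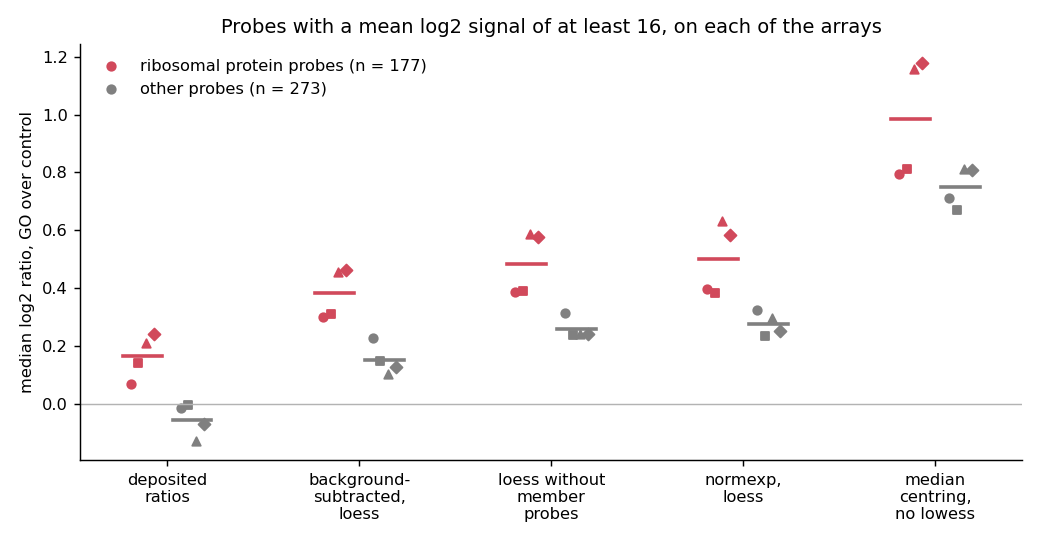
Median log2 ratio (GO over control) on each of the 4 arrays (circle, square, triangle and diamond for arrays 1 to 4; line, mean of the arrays) for ribosomal protein probes (red) and other probes (grey) with a mean log2 signal of at least 16, under 5 dye normalizations. The level of both sets moves with the normalization, and the distance between them stays at a mean of 0.22 to 0.24. Probes of like signal are shifted alike by each setting, so this steadiness is no test of the distance.

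Ribosomal proteins whose symbols fall outside the name rule lay in the same range. *rpsa* (0.17), *gnb2l1* (0.14) and *fau* (−0.01) had a median of 0.14, and none of the 3 was changed (1 at an unadjusted *p* value under 0.05 in limma). Of the 3, 1 was changed after normexp and loess (median 0.35) and all 3 were after median centring (0.76). The shares of all gene names were 8.8% in the deposited ratios, 4.35% after normexp and 11.3% after median centring. A further 41 probes under 23 other names carry a description as a ribosomal protein. Of the 38 tested 8 were changed (21.1%), all higher, with a median of 0.19, where 8.94% of all probes tested were changed and 3.33% were higher. These 8 probes belong to 5 names and are no replicates, and the set was chosen after the names in the files were seen.

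In the other lists of the translation machinery the medians lay between −0.05 and 0.07. The counts below stand beside 8.8% of all gene names changed in the deposited ratios. That share was 4.35% after normexp and 11.3% after median centring. None of 65 mitochondrial ribosomal protein genes was changed (8 at an unadjusted *p* value under 0.05 in limma; median 0.03, range −0.18 to 0.31), and none was under normexp or median centring either; these probes are dimmer, with a median log2 signal of 11.1 against 16.5. Of 54 ribosome biogenesis genes 1 was changed, *gnl3*, a nucleolar GTPase (0.38), with a median of −0.01. Of 42 genes listed as initiation factors, mostly by symbol, 1 was changed, with a median of 0.00. It was *eif2ak2*, an interferon-induced kinase taken in by its symbol, which was lower (−1.07, between −2.02 and −0.25 on the arrays). Of 12 elongation and release factors 1 was changed, *eef2k*, the kinase that inhibits elongation factor 2 (−0.41), with a median of −0.01. No gene was changed among 10 of RNA polymerase I (median −0.05) and 9 of growth control (median 0.07), of which 2 and 1 had an unadjusted *p* value under 0.05 in limma. After median centring 2 of the biogenesis genes, 5 of the initiation factors and 3 of the elongation and release factors were changed. Their medians were −0.02, 0.07 and 0.08. In the same setting 1 of the growth control genes was changed, with a median of 0.07.

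Other mRNAs with a pyrimidine start gave ratios of both signs. Of 10 such genes 4 were positive and none was changed (3 at an unadjusted *p* value under 0.05 in limma), with a median of −0.05. After normexp and loess 2 of the 10 were changed, with a median of 0.10, and after median centring 5 were, with a median of 0.34. Of all gene names 8.8% were changed in the deposited ratios, 4.35% after normexp and 11.3% after median centring. *eef1a1*, elongation factor 1A and as bright as the members, had ratios of 0.26, 0.37, 0.38 and 0.42 (mean 0.36 ± 0.07 SD, n = 4; adjusted *p* = 0.0116), short of the fold change. *eef2*, elongation factor 2, was negative on all 4 arrays (mean −0.22 ± 0.08 SD, n = 4; adjusted *p* = 0.0460), and *tpt1*, also bright, was at −0.06 ± 0.14 (SD, n = 4).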

How the data were processed

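Two-color horse arrays (4, on 1 slide) were scanned by the authors and read with Feature Extraction (10.10.1.1 in the file headers). Deposited were log10 ratios of Cy5 over Cy3, made by the authors' software from signals corrected for background and spatial trend and dye-normalized by a linear and a lowess step. The deposited intensity values hold mean, background, background-subtracted and processed signals. The ratios were turned to log2, 1417 control spots and outlier spots were left out, spots of a probe were averaged, and the 4 ratios of 26832 of 43603 probes, well above background in 1 channel on all 4 arrays, were tested against 0 with limma 3.58.1 (lmFit, eBayes, two-sided, Benjamini-Hochberg) in R 4.3.3. The number of arrays limits the precision. No member spot was saturated. The fit was tested on simulated data.

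The 2 channels of an array were taken as a pair: deviations of same-array signals correlated at 0.48 to 0.86, those of different arrays at −0.54 to 0.24. Alternatives were normexp (offset 50) with loess, loess or median centring of background-subtracted signals, other filters and tests, array weights, and each array left out.

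The members, lists and tests were chosen with earlier results of these data known. Named by rule were genes past both thresholds, the 5 genes of each subunit with the largest ratios, paralogs and 11 listed genes; others were chosen after their values were seen. Positions (EquCab1) and probe sequences are those of the array files. Promoters and proteins were not analysed here. A gene of 1 list is not reported here.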

Additional observations from a re-analysis of the deposited data

How the results depend on the processing

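The count of 4 changed genes among 64 (3 higher, 1 lower) became 35 (35 higher, 0 lower) after normexp and loess, 29 (28 higher) after loess on background-subtracted signals, 35 (34 higher) with member probes left out of that loess, 59 (58 higher) after median centring, 1 (0 higher) with no filter on dim probes (background 1.95% of gene names, 0.648% higher) and 13 (12 higher) on the adjusted *p* value alone. It was 2 (0 lower) without the paralogs and 2 to 6 (1 to 5 higher) with 1 array left out, where 5.49% to 8.78% of all gene names were called. The plain one-sample test gave 0 in either direction (28 at an unadjusted *p* value under 0.05, against 31 in limma), with adjusted *p* values of 0.0513 to 0.145 for the 4 genes and 0.536% of all gene names called. With no replicate block, so that the channels were not paired by array, 0 genes were called in limma, 0 higher and 0 lower (3 at an unadjusted *p* value under 0.05), against 1.28% of all gene names. The other settings gave 3 to 5. Members were mostly bright, and of the other probes at a log2 signal of at least 16, 33.7% were changed after normexp and 89% after median centring.

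The subunit medians, 0.09 and 0.17, became 0.35 and 0.54 (normexp and loess), 0.26 and 0.40 (background-subtracted, loess), 0.35 and 0.52 (member probes left out) and 0.80 and 1.05 (median centring). Their difference of −0.08 became −0.19, −0.15, −0.16 and −0.25 in the same order, and ranged from −0.025 to −0.093 with 1 array left out.

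Signs turned for 5 of the 23 genes named by rule, all with means of −0.07 to −0.01. In the same order of normalizations *rpl13a* came to 0.28, 0.16, 0.26 and 0.75, *rplp1* to 0.36, 0.23, 0.34 and 0.86, and *rps17l* to 0.29, 0.17, 0.28 and 0.77, while *rps17l* ranged from −0.025 (without array 3) to 0.0092 (without array 2) with 1 array left out. *rpl26l1* came to 0.24 after median centring, 0.021 with array weights and between −0.042 (without array 3) and 0.063 (without array 1), and *rpl7l1* to 0.032 without array 4. The cause was not tested.

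With dye and treatment in 1 fixed orientation on 1 slide, a dye effect on these bright probes cannot be told apart from an effect of GO.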
